A study of Mus musculus with 9 samples.

Results

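The enzymes that modify collagen lysines and prolines and the oxidases that cross-link it were followed in 6620c1, a cell line from a mouse pancreatic tumor. The group held 10 genes, chosen by symbol and not by their values, out of 24493 rows in the expression table. They were the prolyl 4-hydroxylase alpha subunits P4ha1, P4ha2 and P4ha3, the lysyl hydroxylases Plod1, Plod2 and Plod3, and the lysyl oxidases Lox, Loxl1, Loxl2 and Loxl4. RNA was sequenced in 9 libraries, 3 each from day 0, day 2 and day 14 of culture under nutrient and oxygen deprivation. All 9 libraries carry the prefix WT in the table, whose meaning is not stated. The labels give the same medium for all 9 libraries, day 0 included: DMEM with glucose lowered to 2.5 mM, fetal calf serum to 0.5% and amino acids to 20% of the usual level, with no further treatment. They do not state the oxygen level, the medium before day 0 or whether the 3 libraries of a day came from separate cultures, so p-values measure the spread between these libraries, which may be technical. The design has no undeprived cells of the later days, so an effect of deprivation and one of culture time cannot be told apart, and 6620c1 is a single cell line.

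Collagen chains are modified inside the endoplasmic reticulum before they fold into a triple helix. Prolyl 4-hydroxylases, tetramers of catalytic alpha subunits and the shared beta subunit P4hb (protein disulfide isomerase), make the 4-hydroxyproline that keeps the helix stable at body temperature. Lysyl hydroxylases make hydroxylysine, and both families need oxygen, iron, 2-oxoglutarate and ascorbate. Outside the cell, lysyl oxidases, which carry copper, turn lysine and hydroxylysine into aldehydes that form the cross-links of collagen and elastin. In other cells P4ha1, P4ha2, Plod2, Lox and Loxl2 are known targets of the hypoxia-inducible factors (HIF), and cross-linked collagen is a known feature of the dense stroma of pancreatic tumors.

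Levels are TPM, which correct each gene for its length and set every library to the same total. Read totals cannot be recovered from them, so depth is unknown. Libraries of the same day correlated at 0.947 to 0.979 (Pearson r of log2(TPM + 1) across the genes tested). The row Mir6236 held 22.5% of the TPM in day 2 replicate 3 and 8.27% to 14.6% in the others, which lowers every other value of that library. Of 8 epithelial markers, 6 had a mean of at least 10 TPM. The sum of all 8 lay between 10842 and 11498 TPM at day 0, 5497 and 7621 at day 2, and 6889 and 8672 at day 14. Krt7, Krt8, Krt18 and Krt19 made up most of that sum, and each had a lower mean at both later days. Cdh1, at 240, 224 and 399 TPM on average at day 0, 2 and 14, and Cldn7, at 57.0, 47.0 and 102, were highest at day 14. Epcam was low, at 2.23, 0.686 and 14.1 TPM on average at day 0, 2 and 14, and so was Cldn4, at 0.257, 0.190 and 1.34. Of 8 fibroblast markers, 7 stayed under 1 TPM in every library, and the list summed to between 0.0396 and 2.81 TPM. The 5 endothelial markers and 5 of 6 leukocyte markers also stayed under 1 TPM throughout, while Csf1r reached 5.20 TPM.

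At day 2, P4ha1, P4ha2, Plod2 and Loxl2 were higher than at day 0, by 14.2-fold for Plod2, 7.69-fold for P4ha1, 7.44-fold for P4ha2 and 2.37-fold for Loxl2 (ratios of mean TPM, n = 3 per day). P4ha1 had the same mean of 114 TPM at day 2 and day 14, while P4ha2 and Plod2 had fallen from day 2 and remained above day 0. Plod3 and Plod1, the lysyl hydroxylases with the highest levels at day 0, did not pass the test at day 2. Lox and Loxl1 were at or near 0 in every library. Of the 10 genes, 8 passed the expression filter of at least 1 TPM in at least 3 libraries and were tested. At day 2, 4 of these 8 were called higher, against 27.1% of all genes tested, and 2 were called lower, against 31.9%. At day 14, 5 were higher than at day 0, against 36.2% of all genes, and 2 were lower, against 18.8%. P4ha1, P4ha2 and Plod2 rose by a log2 fold change of at least 2 at both times, a size reached by 1.83% of all genes at day 2 and 2.34% at day 14. P4ha2 reached it narrowly at day 14, at 2.05. It fell short there after median-of-ratios scaling (1.83) or quantile normalization (1.94), with a pseudocount of 5 (1.83) and without day 14 replicate 1 (1.95). Both comparisons share the day 0 libraries, and in bulk RNA a change in the number of cells that express a gene and a change in RNA per cell cannot be told apart. Each log2 fold change is that of TPM + 1, so changes of low genes come out too small, and a gene is called where limma's p, adjusted over all genes by Benjamini and Hochberg, is under 0.05.

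**Figure D1:**
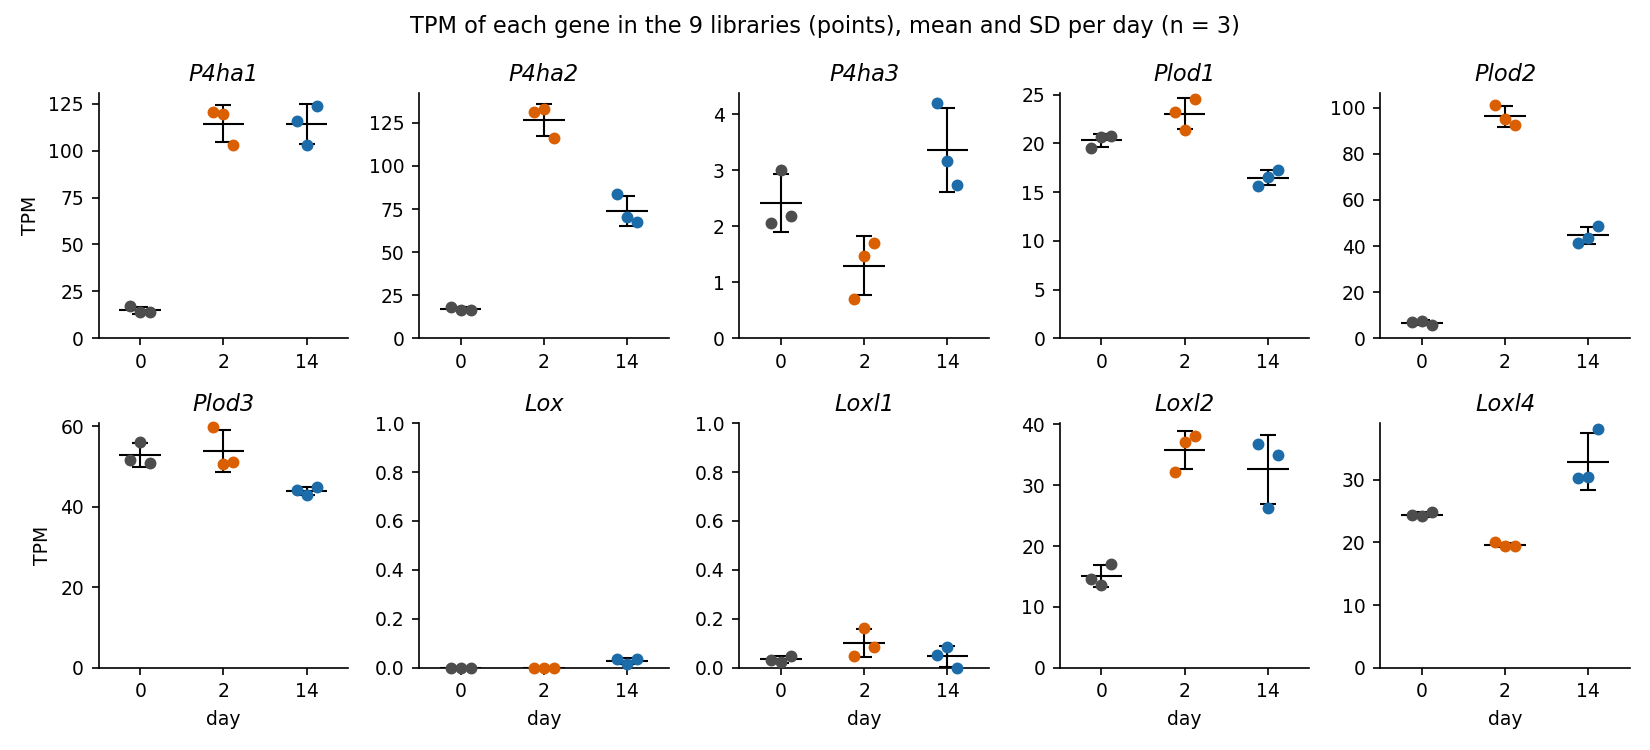
TPM (vertical axes, each from 0, scaled per gene) of the 10 genes at day 0, 2 and 14, with 1 point per library, a horizontal line at the mean and a bar of 1 SD. P4ha1, P4ha2, Plod2 and Loxl2 have every day 2 and day 14 library above every day 0 library, and Lox and Loxl1 lie near 0 on an axis that ends at 1 TPM.

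P4ha1 encodes the alpha subunit found in most tissues. It measured 17.2, 13.7 and 13.8 TPM in the 3 libraries of day 0, 121, 119.7 and 103 at day 2, and 116, 103 and 124 at day 14. The groups of day 2 and day 14 lay wholly above day 0 and overlapped each other. The log2 fold change was 2.86 (SE 0.12, adjusted p = 3.95e-07) at day 2 and 2.86 (adjusted p = 2.87e-06) at day 14. Between day 2 and day 14 it was -0.0026, with a 95% interval from -0.28 to 0.28, and after median-of-ratios scaling and quantile normalization it was -0.27 and -0.28 (adjusted p = 0.117 and 0.0959). The gene stood above 47.7% of all tested genes by mean TPM at day 0, above 92.7% at day 2 and above 90.8% at day 14. Its increase ranked 91st among all 12693 genes at day 2 and 106th at day 14.

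P4ha2 encodes a second alpha subunit, known from cartilage, bone and endothelium. It measured 18.1, 16.6 and 16.5 TPM at day 0, 131, 133 and 116 at day 2, and 83.6, 70.3 and 67.5 at day 14. The groups of the 3 days did not overlap, and day 14 lay between the other two. It rose by 2.82 (SE 0.11, adjusted p = 2.73e-07) at day 2 and by 2.05 (adjusted p = 7.51e-06) at day 14, and fell by 0.78 from day 2 to day 14 (adjusted p = 0.00113). P4ha1 and P4ha2 thus stood side by side at day 0 and day 2 and apart at day 14, where P4ha1 was at 114 ± 10.6 and P4ha2 at 73.8 ± 8.60 TPM (SD, n = 3).

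P4ha3, the third and least abundant alpha subunit, ran the other way at low levels. It measured 2.06, 3.005 and 2.18 TPM at day 0, 0.700, 1.48 and 1.70 at day 2, and 4.19, 3.16 and 2.74 at day 14. Every day 2 library was below every day 0 library, and day 14 overlapped day 0. The fall at day 2 was 0.59 on the log2 scale (SE 0.21, adjusted p = 0.0385). That call did not hold when any one of the day 0 libraries, day 2 replicate 1 or day 14 replicate 2 was left out (adjusted p from 0.0523 to 0.135). It was also lost with the microRNA and small nucleolar RNA rows removed (limma adjusted p = 0.0600). The same held with the 20 most abundant rows removed or with no filter on low values (limma adjusted p = 0.0838 and 0.0718). Day 14 against day 0 gave 0.35 (adjusted p = 0.19). From day 2 to day 14 it rose by 0.94 (SE 0.21, adjusted p = 0.0106), a call lost with quantile normalization (0.55, adjusted p = 0.0931).

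Summed over the family, alpha subunits came to 34.4 ± 2.59 TPM at day 0, to 243 ± 18.8 at day 2 and to 191 ± 14.0 at day 14 (SD over 3 libraries). The beta subunit P4hb, which also serves as a general disulfide isomerase and lies far above the alpha subunits, was at 490.1 ± 27.5, 597 ± 53.1 and 454 ± 61.8 TPM. Its log2 fold change was 0.28 at day 2 (adjusted p = 0.0608) and -0.12 at day 14 (adjusted p = 0.408). The alpha subunits together came to 7.05 ± 0.927% of P4hb at day 0, 40.8 ± 3.52% at day 2 and 42.5 ± 4.43% at day 14, with no overlap between day 0 and either later day.

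The promoters of these genes are shown because the HIF binding core can be looked for in them. Of the 10 genes, 6 had a promoter window in the RefSeq table of mouse build GRCm38.p6: P4ha1, P4ha2, P4ha3, Plod1, Plod3 and Loxl4. Plod2, Lox, Loxl1 and Loxl2 had none. The letters ACGTG and GCGTG were searched on both strands, and a palindromic CACGTG was counted once. The windows of P4ha2 and Plod3 held 4 matches each, P4ha1 held 3, Plod1 held 2, Loxl4 held 1 and P4ha3 held 0. Among all 32851 windows of the same length, 43.8% held at least 1 match, 17.5% at least 2, 6.83% at least 3 and 2.64% at least 4. The stretches below lie before the annotated start and are printed 5′ to 3′ on the gene's strand, with matches on either strand in capitals. P4ha1 and P4ha2 are the members with the largest rises that had a window, and Plod1 is a member that did not pass the test at day 2. The P4ha1 stretch spans chr10:59323046-59323196 on the plus strand, that of P4ha2 chr11:54100674-54100923 on the plus strand and that of Plod1 chr4:147936777-147937026 on the minus strand.
P4ha1: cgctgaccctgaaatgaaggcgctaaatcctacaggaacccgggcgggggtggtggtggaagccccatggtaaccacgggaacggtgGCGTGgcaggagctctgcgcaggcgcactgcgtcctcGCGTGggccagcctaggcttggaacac
P4ha2: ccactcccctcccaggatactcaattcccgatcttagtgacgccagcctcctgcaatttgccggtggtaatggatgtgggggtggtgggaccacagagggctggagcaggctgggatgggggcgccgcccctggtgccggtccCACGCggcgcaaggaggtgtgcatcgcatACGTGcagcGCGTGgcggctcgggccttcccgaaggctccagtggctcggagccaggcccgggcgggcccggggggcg
Plod1: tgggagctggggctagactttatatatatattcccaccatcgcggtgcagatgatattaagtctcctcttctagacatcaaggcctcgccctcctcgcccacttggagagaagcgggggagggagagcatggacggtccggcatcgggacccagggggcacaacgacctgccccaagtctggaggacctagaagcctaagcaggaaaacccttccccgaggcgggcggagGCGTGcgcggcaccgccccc
The printed stretches hold 2 of the 3 matches of P4ha1, 3 of the 4 of P4ha2 and 1 of the 2 of Plod1. The windows searched ran from 250 bases before the start to 50 after it. The P4ha1 stretch was cut at position -100, before annotated exon sequence, and its match not printed lies at -14, still before the start. Those of P4ha2 and Plod1 lie after the start, at 12 and 16. Day 2 log2 fold changes were 2.82 for P4ha2 and 0.03 for Plod3, with 4 matches each, and 2.86 for P4ha1, with 3. They were 0.17 for Plod1 with 2, -0.31 for Loxl4 with 1 and -0.59 for P4ha3 with 0. Plod2, with the largest rise, had no window. Whether the matches bear on these changes was not tested. A match is only a run of letters, and binding was not measured.

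Among the lysyl hydroxylases, Plod2, whose enzyme hydroxylates the telopeptide lysines at the ends of the collagen chain, was the lowest of its family at day 0 and the highest at day 2. It measured 6.90, 7.67 and 5.78 TPM at day 0, 101, 95.1 and 92.6 at day 2, and 41.5, 43.6 and 48.6 at day 14. The 3 days did not overlap. Its log2 fold change was 3.65 (SE 0.12, adjusted p = 1.88e-07) at day 2 and 2.55 (adjusted p = 3.71e-06) at day 14. It fell by 1.10 from day 2 to day 14 (adjusted p = 0.000251). Its rise at day 2 ranked 40th of all genes tested, ahead of P4ha1 and P4ha2.

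Plod1, which hydroxylates lysines within the helix, measured 19.6, 20.6 and 20.8 TPM at day 0, 23.2, 21.4 and 24.6 at day 2, and 15.7, 16.5 and 17.2 at day 14. Day 14 lay below both other days, and day 2 lay above day 0. The log2 fold change was 0.17 at day 2 (adjusted p = 0.164) and -0.29 at day 14 (adjusted p = 0.0351), and between day 2 and day 14 the gene fell by 0.46 (adjusted p = 0.00854). The day 14 call against day 0 did not hold when any one of the 6 libraries compared was left out (adjusted p from 0.05001 to 0.110). After median-of-ratios scaling and quantile normalization that change was -0.50 in both (limma adjusted p = 0.00431 and 0.00725). With the 20 most abundant rows or the microRNA and small nucleolar RNA rows removed it was -0.25 (limma adjusted p = 0.0712 and 0.0808).

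Plod3, which also carries the glycosyltransferase activities that add sugars to hydroxylysine, measured 51.6, 56.2 and 50.8 TPM at day 0, 60.0, 50.8 and 51.2 at day 2, and 44.1, 42.9 and 44.9 at day 14. Day 0 and day 2 overlapped, and every day 14 library was lower than both. The log2 fold change was 0.03 at day 2, with a 95% interval from -0.20 to 0.25 (adjusted p = 0.833), and -0.26 at day 14 (adjusted p = 0.0497). That last call did not hold when any one of the 6 libraries compared was left out (adjusted p from 0.0824 to 0.177). After median-of-ratios scaling and quantile normalization it held, at -0.48 and -0.27 (limma adjusted p = 0.00244 and 0.0476). With the 20 most abundant rows or the microRNA and small nucleolar RNA rows removed it was lost, at -0.22 in both (limma adjusted p = 0.0657 and 0.0720). From day 2 to day 14 the change was -0.29 (adjusted p = 0.0545). It passed without day 2 replicate 2 (limma adjusted p = 0.0445) and with no filter on low values (limma adjusted p = 0.0453). It also passed under each of the 4 other scalings tried (log2 fold change from -0.57 to -0.36).

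The lysyl hydroxylases summed to 80.0 ± 3.95 TPM at day 0, to 173 ± 9.67 at day 2 and to 105 ± 5.03 at day 14 (SD over 3 libraries). Plod2 made up 8.46 ± 0.866% of that sum at day 0, 55.6 ± 1.11% at day 2 and 42.4 ± 1.48% at day 14. Plod3 went from 66.1% to 31.1% and 41.9%, and Plod1 from 25.4% to 13.3% and 15.7%. Plod2 and Plod3 had overlapping libraries at day 14, when both stood near 44 TPM. Plod2 overlaps the annotated noncoding RNA B430319G15Rik (0.136, 1.47 and 1.30 TPM on average at the 3 days), and Plod3 overlaps Znhit1 (146, 128 and 97.9 TPM) and Mir702. Whether the libraries kept strand is not stated, so reads shared with these neighbours cannot be told apart.

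The lysyl oxidases differed from each other in whether they were expressed at all. Lox, the founding member, was listed at 0 in all 6 libraries of day 0 and day 2 and at 0.0353, 0.0157 and 0.0380 TPM at day 14. Loxl1, known for its part in elastic fibers, lay between 0 and 0.162 TPM in the 9 libraries. Neither was tested. Loxl2, known to cross-link type IV collagen, and Loxl4, which shares its scavenger receptor domains, made up nearly all of these 4 genes' TPM. Loxl3, a further gene of the family, is not in that sum and is given below with the lysyl oxidase partners.

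Loxl2 measured 14.6, 13.5 and 17.1 TPM at day 0, 32.2, 37.1 and 38.0 at day 2, and 36.8, 26.2 and 34.9 at day 14. Both later days lay above day 0 and overlapped each other. The log2 fold change was 1.20 (SE 0.15, adjusted p = 0.000146) at day 2 and 1.06 (adjusted p = 0.000462) at day 14, and from day 2 to day 14 it was -0.14, with a 95% interval from -0.48 to 0.20. After median-of-ratios scaling and quantile normalization that last change was -0.40 and -0.44 (limma adjusted p = 0.0859 and 0.0647). The rise of Loxl2 at day 2 ranked 980th, behind the other 3 genes that rose.

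Loxl4 measured 24.4, 24.1 and 24.8 TPM at day 0, 20.0, 19.4 and 19.3 at day 2, and 30.2, 30.4 and 38.1 at day 14. The 3 days did not overlap, with day 2 lowest and day 14 highest. The fall at day 2 was 0.31 on the log2 scale (SE 0.11, adjusted p = 0.0391), and it did not hold when any one of the 6 libraries compared was left out (adjusted p from 0.0648 to 0.103) or under the other 4 scalings (adjusted p from 0.0531 to 0.255). At day 14 the gene was 0.41 above day 0 (adjusted p = 0.0127), a call lost with median-of-ratios scaling (0.19, adjusted p = 0.157) and quantile normalization (0.28, adjusted p = 0.0692). From day 2 to day 14 it rose by 0.71 (adjusted p = 0.00179). The share of Loxl2 in the summed TPM of Lox, Loxl1, Loxl2 and Loxl4 was 38.0% at day 0, 64.4% at day 2 and 49.6% at day 14.

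**Figure D2:**
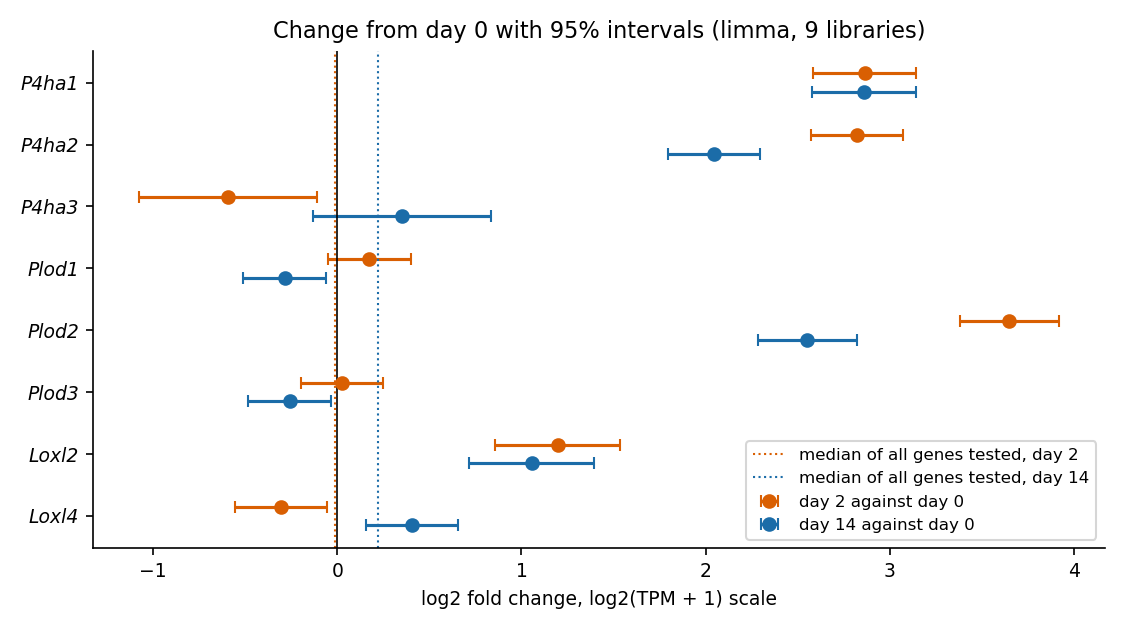
Log2 fold change on the log2(TPM + 1) scale (horizontal axis) of the 8 genes tested, at day 2 (orange) and day 14 (blue) against day 0, with 95% intervals from limma and dotted lines at the median of all genes. P4ha1, P4ha2 and Plod2 lie above 2 at both times, Loxl2 lies near 1, and the other 4 lie between -0.59 and 0.41.

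The median log2 fold change of the 8 genes was 0.68 at day 2 and 0.73 at day 14, beside -0.02 and 0.22 over all genes tested. The median of all genes at day 14 depended on the scaling: it was 0.02 after median-of-ratios scaling, so changes of that size at day 14 are read against this shift. From day 2 to day 14 the median of the 8 genes was -0.21 beside 0.25 over all genes (0.00 after median-of-ratios scaling). In that comparison 2 of the 8 rose, P4ha3 and Loxl4, against 27.4% of all genes, and 3 fell, P4ha2, Plod1 and Plod2, against 3.79%. The share of all genes that fell is itself sensitive to the scaling: 481 genes were lower and 3474 higher as deposited, and 1408 were lower and 1658 higher after median-of-ratios scaling.

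To see how members of a family changed against each other, the log2 ratio of TPM + 1 was taken in each library for all 7 pairs of tested genes within a family and compared across the 3 days, with an exact permutation test of the F statistic adjusted over the 7 pairs. On that scale Plod2 to Plod3 went from -2.80 at day 0 to 0.83 at day 2 and 0.02 at day 14. Plod1 to Plod2 went from 1.46 to -2.02 and -1.38, and Loxl2 to Loxl4 from -0.67 to 0.84 and -0.02. P4ha1 to P4ha3 went from 2.22 to 5.68 and 4.73, and P4ha2 to P4ha3 from 2.41 to 5.83 and 4.11. The added 1 compresses the pairs with P4ha3, a low gene: as ratios of plain TPM, which do not depend on how a library was scaled, P4ha1 to P4ha3 was 2.64, 6.56 and 5.10, and P4ha2 to P4ha3 was 2.84, 6.71 and 4.47. Each of these 5 pairs reached p = 0.00357, the smallest this design can give (adjusted p = 0.005, exact permutation). P4ha1 to P4ha2 was -0.19, -0.15 and 0.63 (p = 0.0214, adjusted p = 0.025, exact permutation). Plod1 to Plod3, at -1.34, -1.19 and -1.36, did not pass (adjusted p = 0.157, exact permutation), though it did without day 2 replicate 1 (adjusted p = 0.0393). With plain TPM 6 of the 7 pairs passed too.

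**Figure D3:**
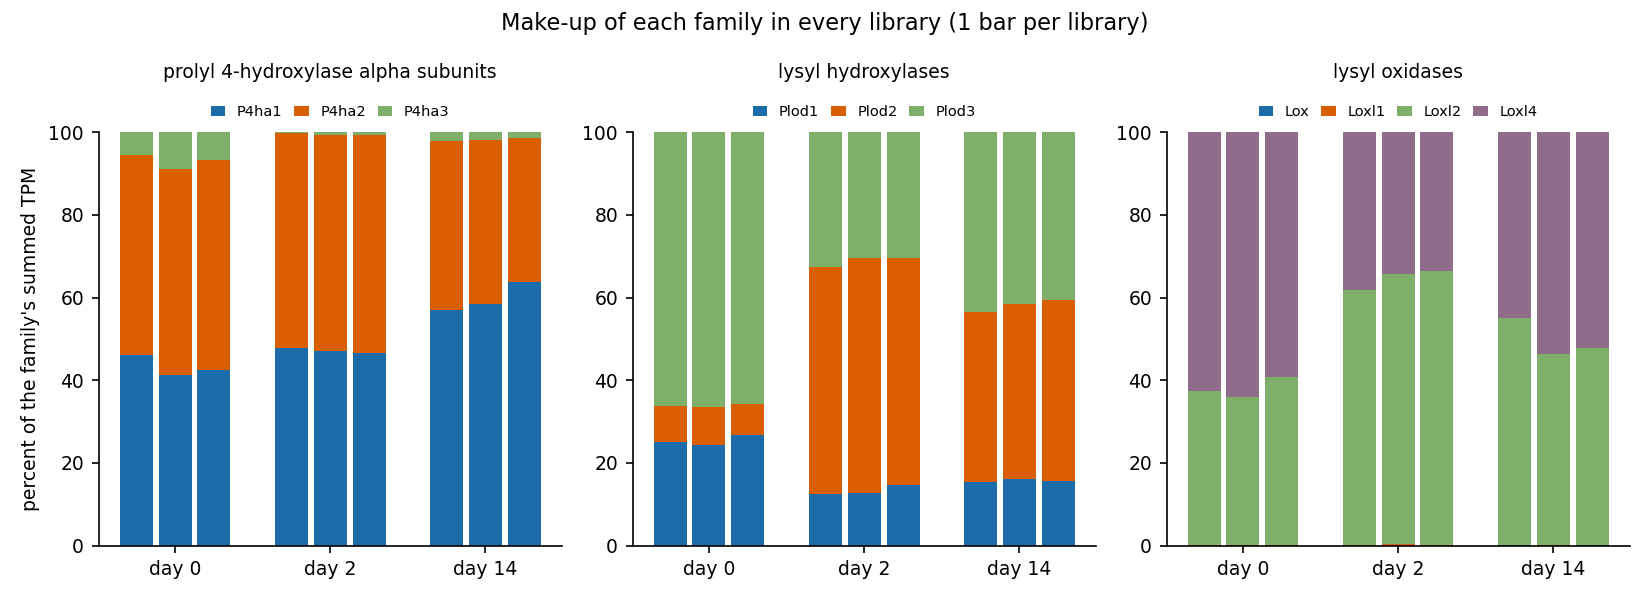
Percent of each family's summed TPM (vertical axis, 0 to 100) held by each member, with 1 stacked bar per library in groups of 3 for day 0, 2 and 14. On average Plod2 grows from 8.46% of the lysyl hydroxylases at day 0 to 55.6% at day 2. Loxl2 grows from 38.0% to 64.4% of the lysyl oxidases, whose sum leaves out Loxl3. P4ha1 grows from 43.2% of the alpha subunits at day 0 to 59.7% at day 14.

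By mean TPM the order at day 0 was Plod3, Loxl4, Plod1, P4ha2, Loxl2, P4ha1, Plod2 and P4ha3, in which P4ha2, Loxl2 and P4ha1 overlapped their neighbours. At day 2 it was P4ha2, P4ha1, Plod2, Plod3, Loxl2, Plod1, Loxl4 and P4ha3, and of the neighbours only P4ha2 and P4ha1 overlapped. At day 14 it was P4ha1, P4ha2, Plod2, Plod3, Loxl4, Loxl2, Plod1 and P4ha3, and the overlapping neighbours were Plod2 with Plod3 and Loxl4 with Loxl2. P4ha1 and P4ha2 had thus moved from the middle of the order to its top by day 2. Across the 9 libraries, log2(TPM + 1) of P4ha2 and Plod2 correlated at 0.993 (Pearson r), P4ha1 and Loxl2 at 0.956 and P4ha1 and P4ha2 at 0.961. Plod1 and Loxl4 correlated at -0.873. The 9 points of each correlation fall into 3 days, so these values describe a shared day pattern and carry no test.

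For the member of each family with the highest mean TPM over the 9 libraries, the 3 tested genes with the most similar pattern were listed. Predicted genes (Gm or Rik names) were left out. Plod3 led Plod2 only narrowly on that mean, at 50.3 against 49.2 TPM. For P4ha1 they were Kiss1 (r = 0.998), Ak4 (r = 0.997) and Fbxl20 (r = 0.996). Kiss1 was low, at 0.0628, 2.72 and 2.86 TPM on average at day 0, 2 and 14. Ak4, a mitochondrial adenylate kinase, went from 2.87 ± 0.583 TPM at day 0 to 32.9 ± 1.20 at day 2 and 31.1 ± 1.29 at day 14. For Loxl2 they were Prr36 (r = 0.981), Hist2h2aa1 (r = 0.980) and Rdh5 (r = 0.977). Prr36 was low, at 0.188, 1.86 and 1.71 TPM on average. For Plod3 they were Ptdss2 (r = 0.924), Stac (r = 0.921) and Etv4 (r = 0.920).

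Most of the tested genes for proteins that work with these enzymes in the endoplasmic reticulum had lower RNA at day 2. The counts of this and the following lists stand beside 27.1% of all genes higher and 31.9% lower at day 2, and 36.2% higher and 18.8% lower at day 14. Of 12 tested partners (prolyl 3-hydroxylases, chaperones and collagen galactosyltransferases), 7 fell and 2 rose at day 2, with a median log2 fold change of -0.60. Fkbp10, a peptidyl-prolyl isomerase that acts with Plod2 on telopeptide lysines, fell from 80.9 ± 1.17 TPM to 31.0 ± 1.22 at day 2 (log2 fold change -1.36) and was at 47.0 ± 2.94 at day 14 (-0.77). Serpinh1, the collagen chaperone HSP47, fell from 45.6 ± 4.62 to 27.7 ± 4.11 TPM (-0.71), and Crtap, the partner of P3h1, from 83.6 ± 4.42 to 46.8 ± 6.95 TPM (-0.83). The pair that rose was P3h3, from 0.482 ± 0.0866 to 3.84 ± 0.585 TPM, and Fkbp14, from 2.83 ± 0.497 to 6.11 ± 0.833 TPM. At day 14, 4 of the 12 were below and 2 above day 0, with a median of -0.20, and after median-of-ratios scaling 7 were below and 2 above (median -0.41).

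Genes of procollagen export and processing were also mostly lower at day 2, when 6 of 9 fell (median -0.62). Pcolce2, an enhancer of procollagen C-proteinase, fell from 63.6 ± 2.15 TPM to 2.20 ± 0.491 at day 2 (log2 fold change -4.35) and was at 9.70 ± 3.09 at day 14 (-2.64). Bmp1, the C-proteinase itself, which also matures the lysyl oxidase proenzyme, fell from 14.0 ± 0.413 to 9.84 ± 0.427 TPM (-0.47). Mia2, an endoplasmic reticulum export factor, was higher at day 14, at 121 ± 12.3 against 61.3 ± 5.94 TPM (0.97).

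Among the fibrillar and basement membrane collagen genes listed, the most abundant were basement membrane chains. Collagens outside these lists were not looked up here. Of 11 fibrillar collagen genes, 8 did not pass the expression filter, Col1a1, Col1a2 and Col3a1 among them. Col4a1 and Col4a2, the main type IV collagen chains, were the most abundant at day 0 among the collagen genes listed. Col4a2 fell from 87.5 ± 3.26 TPM to 37.2 ± 5.87 at day 2 (log2 fold change -1.22) and was at 57.6 ± 3.64 at day 14 (-0.60), and Col4a1 went from 156 ± 5.30 to 76.8 ± 9.20 and 105 ± 5.22 TPM. Of 7 basement membrane chains tested, 5 fell and 1 rose at day 2, and 2 fell and 1 rose at day 14. The chain that rose was Col4a5, from 1.61 ± 0.244 TPM to 2.68 ± 0.805 at day 2 (0.48, adjusted p = 0.0488) and 5.64 ± 0.719 at day 14 (1.35, adjusted p = 0.000369), and the day 2 call was lost under other settings, such as quantile normalization or any one day 0 library left out. Among the fibrillar chains Col11a2, low in these cells, rose from 0.223 ± 0.0850 to 2.53 ± 0.165 and 5.06 ± 2.50 TPM.

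Of the elastic fiber genes and other lysyl oxidase partners, 4 of 13 were tested. Fn1, fibronectin, to which lysyl oxidase binds, rose from 90.7 ± 28.8 TPM to 249.9 ± 50.5 at day 2 (log2 fold change 1.48) and 261 ± 33.7 at day 14 (1.56). Fbln1 fell at day 2, from 7.90 ± 0.683 to 2.76 ± 0.755 TPM (-1.26). Loxl3, the fifth gene of the lysyl oxidase family and kept on this list, was at 2.55 ± 0.450, 3.28 ± 0.578 and 4.22 ± 0.651 TPM, and its rise passed at day 14 (0.56, adjusted p = 0.0184) and not at day 2 (0.27, adjusted p = 0.193).

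Among 8 genes of copper and ascorbate supply, 3 rose and 1 fell at day 2, and 4 rose and 1 fell at day 14. Atp7a, the pump that loads copper onto lysyl oxidases in the secretory pathway, rose from 2.46 ± 0.224 TPM to 7.63 ± 1.02 at day 2 (log2 fold change 1.32) and 8.64 ± 0.876 at day 14 (1.48). Atox1, the chaperone that hands copper to it, fell from 403 ± 12.4 to 235 ± 26.4 TPM at day 2 (-0.78) and was at 299 ± 20.5 at day 14 (-0.43). Slc23a3, of the ascorbate transporter family, rose at day 14, from 0.121 ± 0.0816 to 2.89 ± 2.01 TPM, with libraries at 1.31, 2.20 and 5.15 TPM.

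Other protein hydroxylases that use 2-oxoglutarate and oxygen changed in part. Of 7 tested, 4 rose and 1 fell at day 2 (median 0.99). Egln3, a HIF prolyl hydroxylase, rose from 8.02 ± 1.53 TPM to 176 ± 9.71 at day 2 (log2 fold change 4.31) and was at 124 ± 17.6 at day 14 (3.80). Ogfod1 fell at day 2, from 17.0 ± 0.226 to 10.1 ± 1.78 TPM (-0.71), and Egln2 at day 14, from 54.3 ± 8.10 to 41.3 ± 1.23 TPM (-0.38).

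Known HIF targets were higher at both later days. Of 14 tested, 13 were higher at day 2 (median log2 fold change 3.62) and 13 at day 14 (median 2.78), and Pfkfb4 passed at neither time (0.01 and 0.38). Bnip3, a mitophagy receptor, went from 5.32 ± 1.95 TPM to 604 ± 64.9 at day 2 and 317 ± 14.8 at day 14. From day 2 to day 14, 11 of the 14 fell (median -0.72) and 1 rose, the carbonic anhydrase Car9 (0.83). P4ha2, at -0.78, and Plod2, at -1.10, lay among these falls, while P4ha1 lay with Pfkfb3 (-0.02), a phosphofructokinase-2 isoform, among genes with little difference between the later days. In that comparison 27.4% of all genes were higher and 3.79% lower. The rise of Car9 was not called with a pseudocount of 0.1, median-of-ratios scaling or quantile normalization, where 10, 11 and 10 of the 14 HIF targets fell. With no filter on low values 8 of them fell.

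Transforming growth factor beta, a known inducer of several lysyl oxidases and hydroxylases, was represented by 9 tested ligands, receptors and targets, of which 2 rose and 2 fell at day 2 and 4 rose and 1 fell at day 14. Each share at day 2, 2 of 9, lay below that of all genes. Ctgf fell from 173 ± 28.4 TPM to 39.7 ± 12.1 at day 2 (log2 fold change -2.12) and was at 309.99 ± 55.7 at day 14 (0.84). Pmepa1 was lower at day 14, at 59.6 ± 17.7 against 139 ± 18.2 TPM (-1.24), and Tgfb3 was higher, at 11.3 ± 2.32 against 5.19 ± 0.699 TPM (0.97). Under the 4 other scalings the counts of these lists at day 2 changed by at most 3 genes in either direction, the largest for export and processing, where up to 3 genes then rose. The medians of the growth factor list and of the fibrillar chains at day 2, both -0.03, turned positive under some of them (up to 0.13 and 0.07).

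**Figure D4:**
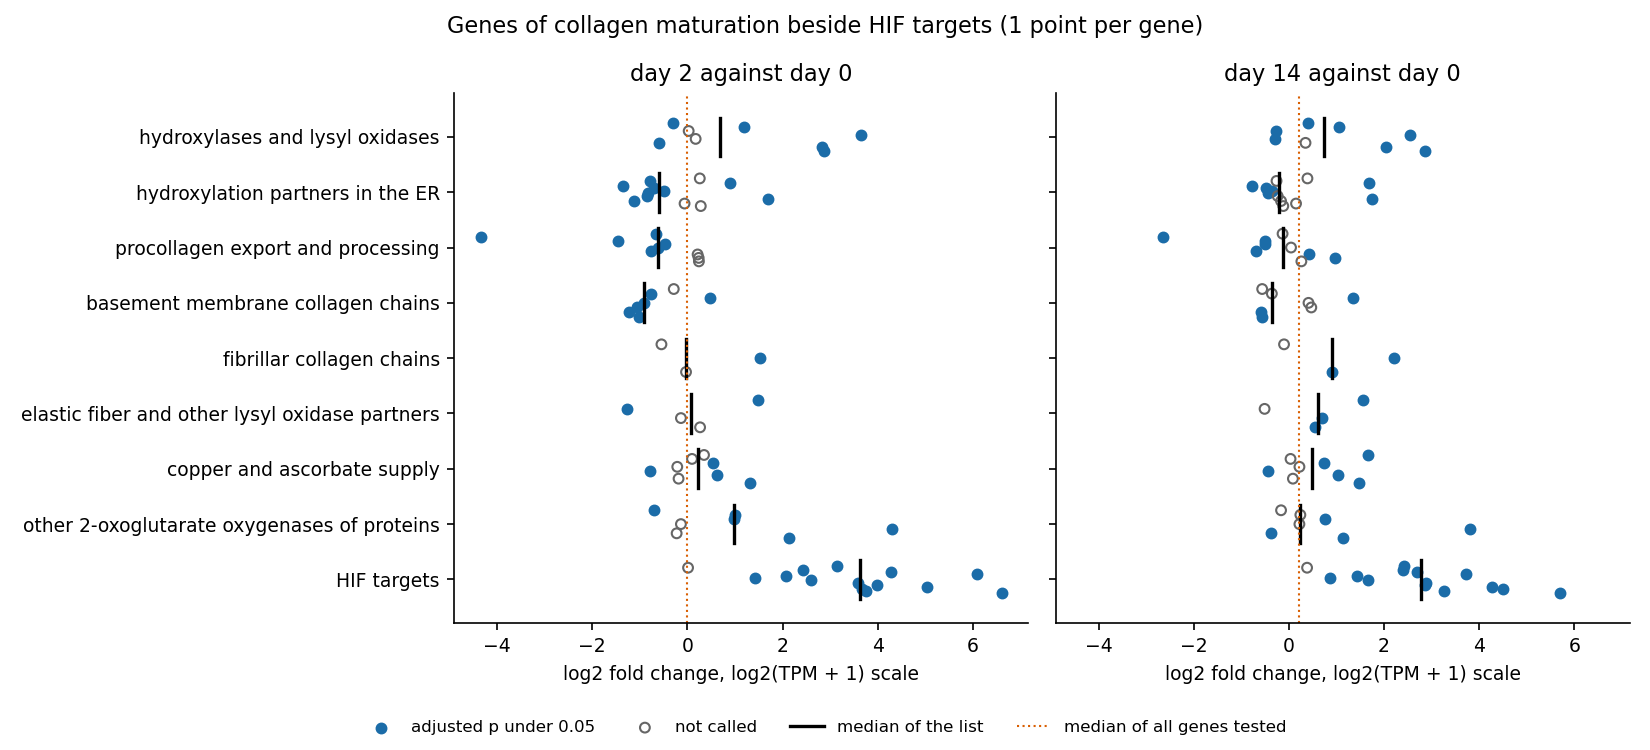
Log2 fold change on the log2(TPM + 1) scale (horizontal axes) of each tested gene (points) in the 8 hydroxylases and oxidases and in 8 further lists, at day 2 and day 14 against day 0. Filled points are called, black bars are list medians and dotted lines the median of all genes. The HIF targets have the highest medians, 3.62 and 2.78, and the partners in the endoplasmic reticulum, the export genes and the basement membrane chains have medians below 0 at both times.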

How the data were processed

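RNA was measured by sequencing in 9 libraries. The deposited values are gene TPM, quantified by the authors with Salmon per the submitters' processing notes. Its version and index, the genome build and the annotation were not stated in those notes or labels, and 0 columns of per-sample values were left unused. Rows with at least 1 TPM in at least 3 libraries were tested (12693 of 24493). Values were log2(TPM + 1), fitted over all 9 libraries with limma 3.58.1 in R 4.3.3 (eBayes with a variance trend, two-sided). The Benjamini-Hochberg adjustment covered every gene tested, and an adjusted p under 0.05 was a call. Ratios of TPM + 1 within a family were compared by an exact permutation test over all 1680 arrangements of the 9 libraries. Family sums, shares and correlations are descriptions. Promoters came from RefSeq (GRCm38.p6). On simulated data the fit recovered 34% to 44% of 1.5-fold changes and 76% to 80% of 2-fold changes put into the more abundant genes. Only 50 genes of each fold size were changed there, far fewer than the genes called in these data. The adjustment was therefore stricter in the simulation, and its shares may understate what the fit recovers in these data. A gene that did not pass may still have changed. Figures used Python 3.11.15 and matplotlib 3.10.9.

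The genes, lists and tests were chosen with earlier results of these data known. The text names all 10 genes, the called gene with the largest rise and the largest fall of each list at day 2 and day 14 against day 0, and the 3 genes most like the most abundant member of each family. Predicted genes were left out of the last choice. One of the genes so chosen is not reported here. P4hb, Fkbp14, Serpinh1, Crtap, Bmp1, Col4a1, Col1a1, Col1a2, Col3a1, Loxl3, Pfkfb3, Pfkfb4 and Car9 were named after their values were seen. Alternatives were other pseudocounts, filters, scalings and variance models, a replicate block, the 2 compared groups alone and each library left out. Ratios of plain TPM were added after the data were seen.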

Additional observations from a re-analysis of the deposited data

Results flagged for a closer look

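For 5 genes the change from day 0 was not the same at day 2 and day 14, by limma's test of day 14 against day 2. The log2 fold change was -0.78 for P4ha2, -1.10 for Plod2 and -0.46 for Plod1, which were lower at day 14 than at day 2. It was 0.94 for P4ha3 and 0.71 for Loxl4, which were higher.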

How the results depend on the processing

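Over 22 alternatives, the rises of P4ha1, P4ha2, Plod2 and Loxl2 at day 2 and day 14 and the falls of P4ha2, Plod2 and Plod1 from day 2 to day 14 kept their direction and their call. In all, 465 of 525 fold changes of the 8 genes kept direction and call, 44 lost the call, 8 gained it and 8 changed sign. The number of genes lower at day 2, 2 as reported, was 1 with no filter, with a filter at a mean of 5 TPM, or after median-of-ratios scaling or quantile normalization. It was 0 with the 20 most abundant rows removed, with microRNA and small nucleolar RNA rows removed, or with the replicate block, and 0 to 2 with a library left out. The number lower at day 14 against day 0, also 2, was 1 with a pseudocount of 5, a mean of at least 5 TPM, no variance trend, robust variances or the replicate block, 0 with either set of rows removed and 0 to 2 with a library left out. The number higher from day 2 to day 14, 2, was 1 with a mean of at least 5 TPM or quantile normalization. With a library left out, 3 to 4 genes were lower in that comparison and 6 to 7 ratios passed. The block ended the falls of P4ha3 (adjusted p = 0.0555) and Loxl4 (0.0502) at day 2 and of Plod3 (0.0712) at day 14 and changed no other call of the 8 genes. Same-numbered libraries correlated from -0.0709 to 0.318 and 4 of 9 correlated best with their own number, so the numbers were not taken as pairs.

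The values that changed sign were not called under either setting. Plod3 at day 2 was -0.021 with sample weights, -0.0016 without day 0 replicate 3 and -0.050 without day 2 replicate 1, the lowest of a range up to 0.070 with 1 library left out. P4ha3 at day 14 against day 0 was -0.28 with quantile normalization. P4ha1 from day 2 to day 14 was 0.038 without day 2 replicate 1, 0.031 without day 2 replicate 2 and 0.071 without day 14 replicate 2 (range from -0.077), against -0.27 and -0.28 after median-of-ratios scaling and quantile normalization, and Loxl2 was 0.0051 without day 14 replicate 2 (range from -0.23). Calls gained were Plod1 at day 2 with the 20 most abundant rows removed (0.34) and Plod3 at day 2 with quantile normalization (0.30), besides those of Plod3 from day 2 to day 14 and of the ratio of Plod1 to Plod3 given above. Over all genes, those lower from day 2 to day 14 numbered 481 as reported, 1902 with quantile normalization (1477 higher), 807 with the 20 most abundant rows removed and 291 with only the groups compared. At day 14 against day 0, 2389 were lower as reported and 3651 with median-of-ratios scaling, and 4601 were higher as reported and 2884 with quantile normalization. At day 2, 3438 were higher and 4046 lower as reported, against 4425 and 3442 with the 20 most abundant rows removed. TPM keep no depth, so counting error is unknown, which bears most on P4ha3, Lox and Loxl1. The causes of these changes were not tested.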
